A study of Mus musculus with 20 samples.

Results

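Heme breakdown and iron handling were followed through 10 genes given by name: Hmox1, Blvra, Blvrb, Fth1, Ftl1, Slc40a1, Tfrc, Tf, Hamp and Hamp2. They are 10 of the 49315 genes of the deposited table, each was found there, and each had a mean of at least 1 TPM, a length-scaled share of a library's transcripts, as did 13401 genes in all. The study profiled liver RNA of 20 mice that were obese from their diet and had steatohepatitis. All of them were kept on the AMLN diet, the controls included. The 10 vehicle mice received the vehicle alone (HEC at 1%) and the 10 treated mice received S217879 at 30 mg/kg by mouth once daily, both for 8 weeks. S217879 is a compound that, by the title of the study, selectively breaks up the NRF2-KEAP1 pair, a transcription factor and the protein that has it degraded. The sources used here give no strain, sex or age, and no mouse on a normal diet is among the samples.

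Heme is opened by heme oxygenase (Hmox1), which releases iron, carbon monoxide and biliverdin, and biliverdin reductases (Blvra, Blvrb) turn biliverdin into bilirubin. Iron is stored in a shell of ferritin heavy (Fth1) and light (Ftl1) chains, leaves cells through ferroportin (Slc40a1), travels in plasma on transferrin (Tf) and enters cells through the transferrin receptor (Tfrc). The liver peptide hepcidin (Hamp) makes ferroportin be degraded, and the mouse carries a duplicate of that gene (Hamp2). Several of these genes are textbook targets of NRF2, and ferritin, ferroportin and the transferrin receptor are also controlled after transcription, by iron regulatory proteins that bind a hairpin in the messenger RNA.

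The difference between the groups was tested for each gene with limma on log2(TPM + 0.5), and called where the Benjamini-Hochberg adjusted p over all 13401 genes was under 0.05. Of the 10 genes, 4 rose with S217879 (Blvrb, Fth1, Ftl1 and Slc40a1), 1 fell (Tf) and 5 did not pass the test (Hmox1, Blvra, Tfrc, Hamp and Hamp2). Among all genes tested, 29.6% were called, 6.07% as higher and 23.5% as lower. The median log2 difference was 0.58 over the 10 genes and -0.12 over all genes tested. The groups did not overlap for 3 of the 10 genes (Blvrb, Fth1 and Ftl1), against 3.73% of all genes tested.

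Libraries 6 and 7 of the vehicle group stood apart. In them 58.2% and 50.7% of the TPM lay in 4 genes of ribosomal RNA type (Gm23935, Gm24270, Gm42418 and Mir6236), against 14.1% to 38.1% in the other 18 libraries, and as TPM sum to a fixed total, the other genes together had a smaller share there. Vehicle 6 was the lowest vehicle library for 8 of the 10 genes. With median-of-ratios scaling, which divides each library by the level of its typical gene, the median log2 difference over all genes was -0.01. On that scale 53.7% of all genes were called, 26.6% higher and 27.1% lower, and of the 10 genes 6 rose, Tfrc and Hamp2 being added, and 1 fell. Without vehicle 6 and 7, on the deposited scale, 4 of the 10 rose and 3 fell, Hmox1 and Blvra being added to Tf, where 60% of all genes were called, 5.56% higher and 54.4% lower. The hepatocyte markers were those of liver, with albumin (Alb) at 33782 TPM in the vehicle group. The 8 of 9 tested reference targets of NRF2 that rose included Nqo1, from 14.6 to 102 TPM.

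**Figure D1:**
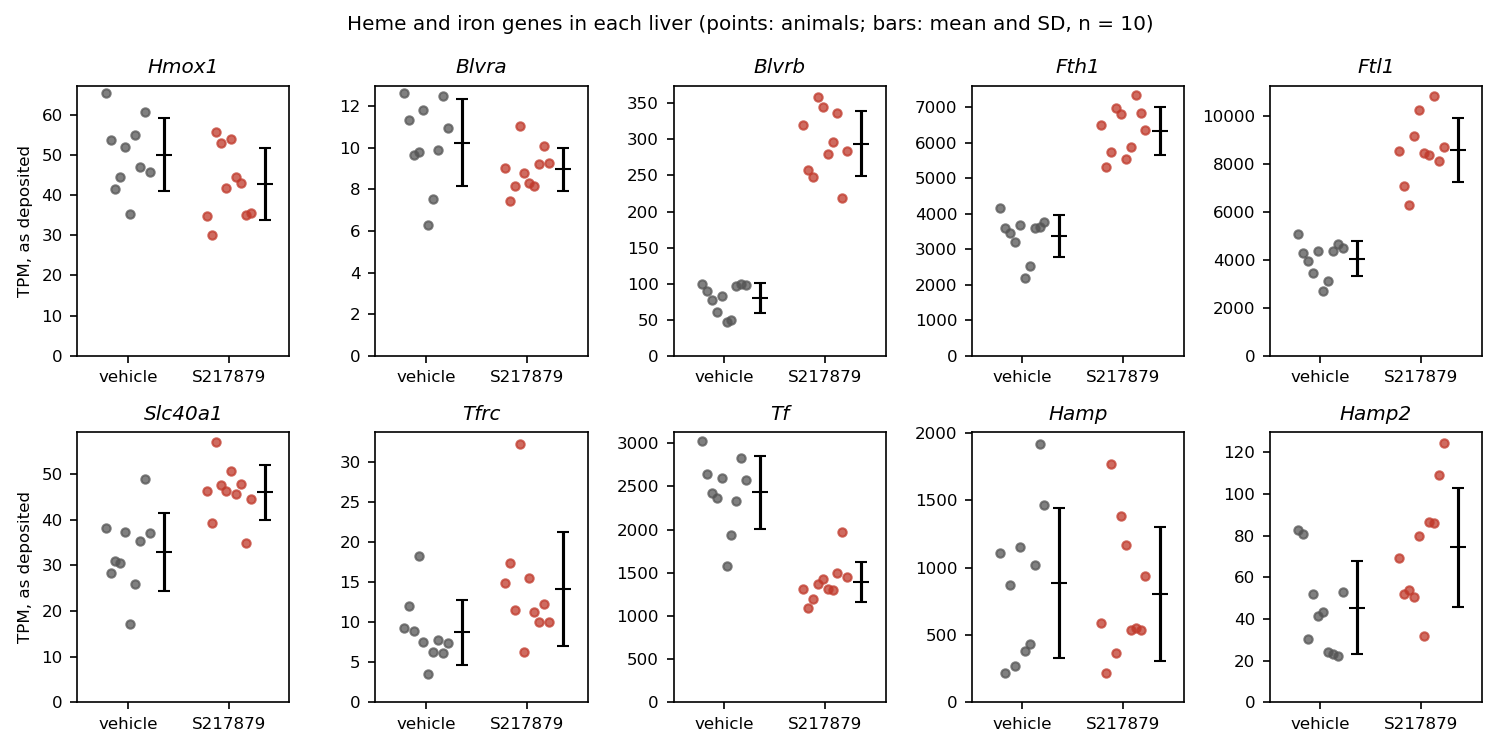
TPM of each of the 10 genes in every animal, vehicle in grey and S217879 in red, each axis starting at 0. Points are animals and bars give the mean and SD of 10. The groups are apart for Blvrb, Fth1 and Ftl1, Tf has 10 of 10 treated animals below the vehicle median, and the Hamp points cover the same range in both groups.

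Heme oxygenase, the first and rate-limiting enzyme of heme breakdown, was not among the genes that rose. Hmox1 (chr8:75093621-75100589, GRCm38, plus strand) measured 35.3 TPM in the lowest, 49.4 in the median and 65.4 in the highest vehicle liver. With S217879 the lowest was 30.0, the median 42.4 and the highest 55.6 TPM. The groups overlapped over most of their range, and 7 of 10 treated livers lay below the vehicle median. The log2 difference was -0.23 (SE 0.13, adjusted p = 0.163), from 50.1 ± 9.07 TPM to 42.7 ± 9.02 TPM (SD, n = 10). On the median-of-ratios scale it was -0.12 (SE 0.12, adjusted p = 0.432), and without vehicle replicate 6 it was -0.29 and past the threshold (adjusted p = 0.0424). It was below 0 in each of the 34 alternatives and was called in 5 of them. Hmox2, the constitutive heme oxygenase, measured 33.3 ± 6.34 TPM and 31.4 ± 4.05 TPM (log2 difference -0.07, adjusted p = 0.706). Without vehicle 6 and 7 Hmox2 was called lower (-0.21, adjusted p = 0.0148), as were 54.4% of all genes. The log2 ratio of Hmox1 to Hmox2 within a library, which no scaling between libraries can move, differed by -0.17 between the groups (permutation test, two-sided, p = 0.264, adjusted p = 0.330 over 5 ratios), and by -0.22 to -0.09 when single animals were left out.

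Hmox1 is abundant in macrophages that clear red cells, and markers of macrophages moved with the treatment. All 11 of 11 lipid-associated macrophage markers tested fell, and their summed level ranged from 414 to 862 TPM in the vehicle group and from 193 to 415 TPM in the S217879 group. Kupffer cells are the resident macrophages of liver. Of 12 tested markers of these cells 4 fell (Adgre1, C1qa, C1qb and C1qc) and none rose, against 23.5% lower and 6.07% higher among all genes. The other 8, Clec4f, Vsig4, Timd4, Cd5l, Marco, Spic, Fcna and Folr2, did not pass. The sums were 662 to 1409 TPM and 545 to 1083 TPM. No marker of either list was at 0 in all libraries, and Cd163 stayed below 1 TPM. In bulk tissue, fewer cells of a type and less RNA per cell cannot be told apart. Within the vehicle group Hmox1 and the macrophage gene Cd68 gave Pearson's r = 0.635 (permutation p = 0.0464) and Spearman's rho = 0.721 (permutation p = 0.0224). Adjusted over the 10 relations computed, these were p = 0.1 for r and p = 0.0748 for rho, not past the threshold. Leaving out the 2 libraries farthest from the Hmox1 median gave r = 0.532. For the S217879 group r was 0.365 (permutation p = 0.296, adjusted p = 0.369), rho was 0.370 (permutation p = 0.293, adjusted p = 0.326) and r without 2 libraries was 0.478. The part of macrophages in the Hmox1 values was not tested.

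The 2 biliverdin reductases differed in response. Blvrb, the reductase that also acts on flavins and on the beta isomer of biliverdin (chr7:27447978-27466144, plus strand), measured 47.6, 86.8 and 100.1 TPM as lowest, median and highest of the vehicle group, and 218, 290 and 358 TPM in the S217879 group. The lowest treated liver held more than the highest vehicle liver. Blvrb rose 3.74-fold (log2 difference 1.90, SE 0.14, adjusted p = 5.73e-14), from 80.2 ± 20.7 TPM to 294 ± 45.5 TPM (SD, n = 10), and passed the test in 34 of 34 alternatives. Blvra, which reduces the alpha isomer that heme oxygenase forms (chr2:127070665-127097084, plus strand), measured 6.30, 10.4 and 12.7 TPM in the vehicle group and 7.45, 8.92 and 11.04 TPM in the S217879 group. Its groups overlapped, with a log2 difference of -0.16 (SE 0.11, adjusted p = 0.282). On the median-of-ratios scale it was -0.05 (adjusted p = 0.266), and without vehicle replicate 6 it was -0.23 and past the threshold (adjusted p = 0.0366). The ratio of Blvrb to Blvra within a library went from a median of 7.90 in the vehicle group to 34.2 in the S217879 group and was above the vehicle median in 10 of 10 treated livers. The log2 ratio differed by 2.08 (SE 0.10, permutation test, two-sided, p = 6e-05, adjusted p = 3e-04 over 5 ratios).

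The genes around heme breakdown moved in both directions. Of 15 tested genes of heme uptake and breakdown, members included, 5 rose and 4 fell, against 6.07% and 23.5% of all genes. Without vehicle 6 and 7 it was 5 and 8, against 5.56% and 54.4% of all genes. Slc48a1, which carries heme out of lysosomes, was the member of that list with the largest rise beside Blvrb. It measured 31.1 to 57.4 TPM in the vehicle group and 101 to 168 TPM in the S217879 group, with no overlap. The difference was 1.54 on the log2 scale (SE 0.12, adjusted p = 5.31e-13), from 46.8 ± 8.82 TPM to 136 ± 19.1 TPM. Abcc3, which exports conjugated bilirubin and other glucuronides toward blood, rose from 164 to 336 TPM (log2 difference 1.07, adjusted p = 9.60e-08), also with no overlap. The bile-side exporter Abcc2 rose from 197 to 296 TPM and Ugt1a1, which conjugates bilirubin, from 133 to 178 TPM (log2 difference 0.48, and 0.28 without vehicle 6 and 7). Ugt1a1 shares exons with the other genes of its locus, so its value depends on how the counting split them. Hemopexin (Hpx), which carries free heme in plasma, fell from 5584 to 3705 TPM (log2 difference -0.60, adjusted p = 0.00152), and haptoglobin (Hp), which carries free hemoglobin, from 4791 to 3676 TPM (log2 difference -0.41, adjusted p = 0.0385). The Hp call was lost in 16 of 20 fits that each left out 1 animal, with adjusted p up to 0.0836. Both are acute phase proteins, and of 12 tested acute phase genes 2 rose and 4 fell, or 1 and 8 without vehicle 6 and 7. The shares of all genes were 6.07% and 23.5%, or 5.56% and 54.4% without vehicle 6 and 7. S217879 replicate 9 stood apart here, being the highest treated liver for 11 of the 12 and for Hpx (6095 TPM) and Hp (6645 TPM, above every vehicle liver). Without it 1 of the 12 rose and 8 fell, against 5.66% and 25.2% of all genes, and the log2 difference was -0.69 for Hpx and -0.51 for Hp. Lrp1, which takes up heme-loaded hemopexin, fell from 182 to 119 TPM, and the heme transporter Flvcr2 from 5.80 to 3.61 TPM.

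Both ferritin chains rose, and they were the most abundant messengers of the 10 genes in both groups. The 5′ UTR of each holds one iron-responsive hairpin in exon 1, the site at which iron regulatory proteins hold back ferritin translation. The GENCODE M21 transcripts were searched on their own strand for the loop CAGTGN with a C in front of the 5 bases before it, where the 5 bases on each side of the loop can pair, with G to T pairs allowed and the last loop base not G. That pattern was in 222 of 21877 protein-coding genes (1.01%) and in 4 of the 10 genes studied. The 30 bases around each loop are printed 5′ to 3′ on the gene's strand, with the 6 loop bases in capitals. The Fth1 site is at chr19:9982732-9982761 (plus strand) and the Ftl1 site at chr7:45459778-45459807 (minus strand), both in GRCm38.
Fth1: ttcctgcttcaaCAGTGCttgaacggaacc
Ftl1: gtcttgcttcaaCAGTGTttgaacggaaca

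Fth1, the heavy chain with the ferroxidase center (chr19:9980598-9985098, plus strand), measured 2182, 3601 and 4156 TPM as lowest, median and highest in the vehicle group. With S217879 it measured 5309, 6432 and 7342 TPM. No treated liver fell within the vehicle range. Fth1 rose 1.89-fold (log2 difference 0.92, SE 0.14, adjusted p = 1.22e-06), from 3384 ± 595 TPM to 6336 ± 681 TPM (SD, n = 10). Ftl1, the light chain that helps build the iron core (chr7:45457944-45459884, minus strand), measured 2725, 4333 and 5081 TPM in the vehicle group and 6302, 8520.5 and 10862 TPM in the S217879 group. Its groups were likewise apart, with a rise of 2.13-fold (log2 difference 1.09, SE 0.14, adjusted p = 8.78e-08), from 4056 ± 736 TPM to 8595 ± 1335 TPM. Both passed the test in every alternative that kept them, 34 for Fth1 and 33 for Ftl1. Together the 2 chains made up 0.744% ± 0.132 of all TPM in the vehicle group and 1.49% ± 0.191 in the S217879 group.

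The 2 chains did not rise by the same factor. The ratio of Fth1 to Ftl1 within a library had a median of 0.829 in the vehicle group, with a range of 0.780 to 0.923. With S217879 the median was 0.739, with a range of 0.656 to 0.911. The log2 ratio was lower by -0.17 with S217879 (SE 0.05, permutation test, two-sided, p = 0.0051, adjusted p = 0.0127 over 5 ratios), and 2 of 10 treated livers were above the vehicle median. Across animals the relation of the 2 chains did not pass the threshold after adjustment on the median-of-ratios scale. There r was 0.714 in the vehicle group (permutation p = 0.0196, adjusted p = 0.0652) and rho was 0.770 (permutation p = 0.0126, adjusted p = 0.0628). For the S217879 group r was 0.728 (permutation p = 0.0169, adjusted p = 0.0652) and rho 0.503 (permutation p = 0.144, adjusted p = 0.222). Without the 2 libraries farthest from the Fth1 median r was 0.709 and 0.205. On the deposited scale, where both chains share the shift of vehicle 6 and 7, r was 0.972 in the vehicle group.

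Ferritin has many processed copies in the mouse genome, and the sources used here do not say how multiply mapped reads were counted. Of 14 ferritin copies in the table, 7 were at 0 in all libraries and 2 reached a mean of 1 TPM. The most abundant, Ftl1-ps1, was listed at 10.4 TPM in the vehicle group and 22.2 TPM in the S217879 group, which is 0.255% and 0.258% of the Ftl1 level. On the opposite strand, Gm10252 overlaps Ftl1 and was listed at 15.3 and 32.7 TPM. The sources do not say whether the counting used strand, so reads of Ftl1 and Gm10252 cannot be told apart here. Of 5 tested storage genes, the 2 chains rose and the other 3 did not pass the test. Among all genes 6.07% were higher and 23.5% lower. The other 3 are the iron chaperones Pcbp1 (220 and 208 TPM) and Pcbp2 (120.4 and 118 TPM), and Ncoa4, which delivers ferritin to lysosomes (38.7 and 38.1 TPM). Pcbp1 was called lower in 5 of 34 alternatives. One of these left out vehicle 6 and 7 (-0.20, adjusted p = 0.0411), where 54.4% of all genes were lower.

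**Figure D2:**
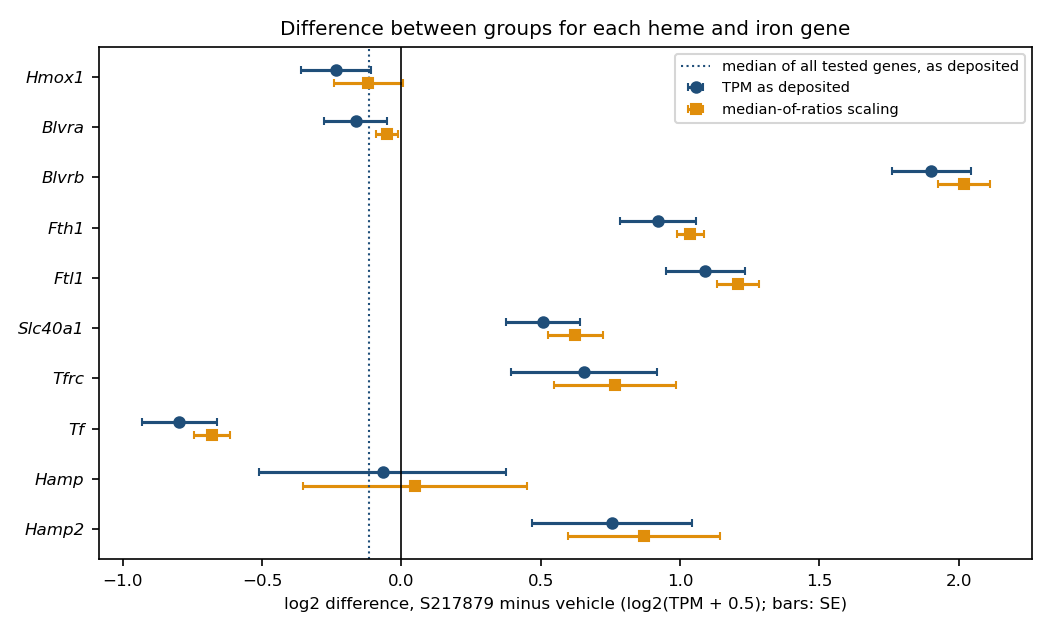
Log2 difference between S217879 and vehicle for each of the 10 genes with its SE, as deposited (blue circles) and after median-of-ratios scaling (orange squares). The dotted line is the median of all tested genes on the deposited scale, -0.12. Each gene lies further right after scaling, Blvrb furthest at 2.02, and Hamp lies within its SE of 0 on both scales.

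Ferroportin, the exporter of iron from cells, rose. Its messenger also carries a hairpin in the 5′ UTR, in exon 1 at chr1:45925464-45925493 (minus strand).
Slc40a1: caacttcagctaCAGTGTtagctaagtttg

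Slc40a1 (chr1:45908068-45926523, minus strand) measured 17.2, 33.1 and 48.9 TPM as lowest, median and highest of the vehicle group. With S217879 it measured 34.8, 46.2 and 57.0 TPM. All 10 treated livers were above the vehicle median and 2 of 10 above the highest vehicle liver, so the groups overlapped at their edges. The log2 difference was 0.51 (SE 0.13, adjusted p = 0.00272), from 33.0 ± 8.51 TPM to 45.9 ± 5.99 TPM (SD, n = 10). It passed the test in 34 of 34 alternatives, at 0.36 (adjusted p = 0.00306) without vehicle 6 and 7 and at 0.62 (adjusted p = 2.30e-05) on the median-of-ratios scale. Ferroportin is abundant in Kupffer cells, whose markers gave the sums reported with Hmox1. Of these 12 markers 4 were lower (Adgre1, C1qa, C1qb and C1qc) and none higher, and Vsig4 was among the 8 not called. With Vsig4, a Kupffer cell gene, Slc40a1 gave r = 0.10 (permutation p = 0.734, adjusted p = 0.815) and rho = 0.491 (permutation p = 0.156, adjusted p = 0.222) in the vehicle group. For the S217879 group r was 0.540 (permutation p = 0.111, adjusted p = 0.159) and rho 0.406 (permutation p = 0.245, adjusted p = 0.307). Without 2 libraries these were r = -0.12 and r = 0.08. No relation with Vsig4 passed the threshold.

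The ferroxidases that load exported iron onto transferrin went in opposite directions. Ceruloplasmin (Cp), made by hepatocytes, fell from 309 ± 51.1 TPM to 205 ± 35.6 TPM (difference in log2 -0.59, SE 0.13, adjusted p = 3.56e-04), with 10 of 10 treated livers below the vehicle median. Hephaestin (Heph), its membrane-bound relative, rose from 0.902 to 1.54 TPM (log2 difference 0.51, adjusted p = 9.75e-04), a low level at which the pseudocount reduces the difference. The vehicle mean of Heph was below 1 TPM, so it was kept for the test through the S217879 group. It was called in 33 of 33 alternatives that kept it. Of the 4 listed export genes Hephl1 stayed below 1 TPM and was not tested. The 3 tested passed, Slc40a1 and Heph higher and Cp lower, a count that depends on the minimum level.

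On the uptake side the receptor did not pass the test as deposited and its cargo fell. The transferrin receptor messenger has its hairpins in the 3′ UTR, where bound iron regulatory proteins protect it from decay. The pattern was found at 4 places in exon 19, at chr16:32631219-32631248, chr16:32631598-32631627, chr16:32631663-32631692 and chr16:32631710-32631739 (plus strand), printed in that order.
Tfrc site 1: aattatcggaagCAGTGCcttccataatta
Tfrc site 2: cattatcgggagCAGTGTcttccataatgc
Tfrc site 3: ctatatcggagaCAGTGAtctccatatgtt
Tfrc site 4: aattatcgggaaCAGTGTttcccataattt

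Tfrc (chr16:32608920-32632794, plus strand) measured 3.53, 7.69 and 18.3 TPM as lowest, median and highest of the vehicle group and 6.34, 11.9 and 32.3 TPM in the S217879 group. The highest liver was vehicle replicate 4 in one group and S217879 replicate 4 in the other, animals that share only this index, and 9 of 10 treated livers were above the vehicle median. The means were 8.73 ± 4.03 TPM and 14.1 ± 7.11 TPM (SD, n = 10), with a log2 difference of 0.65 (SE 0.26, adjusted p = 0.0681). It passed on the median-of-ratios scale, at 0.77 (adjusted p = 0.00578), without vehicle replicate 4, at 0.78 (adjusted p = 0.0215), and without S217879 replicate 5, at 0.76 (adjusted p = 0.0317). Without vehicle 6 and 7 it was 0.48 (adjusted p = 0.107). It was above 0 in all 34 alternatives and called in 8. Young red cells also carry much transferrin receptor. Of 5 tested erythroid markers none was called as deposited, against 29.6% of all genes. On the median-of-ratios scale 1 was higher, against 26.6% of all genes. In the fit without vehicle 6 and 7, 1 was lower, against 54.4% of all genes. Their sums were 189.9 to 369 TPM and 211 to 905 TPM, while Slc4a1 stayed below 1 TPM. Their part in the Tfrc values was not tested.

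Transferrin, which hepatocytes secrete to carry iron in plasma, fell. Tf (chr9:103204001-103230444, minus strand) measured 1577, 2504 and 3028 TPM as lowest, median and highest of the vehicle group. With S217879 it measured 1091, 1347 and 1972 TPM. All 10 treated livers were below the vehicle median and 9 of 10 below the lowest vehicle liver. The lowest vehicle liver was replicate 6, and the 1 treated liver within the vehicle range was replicate 9. Tf fell by 0.80 on the log2 scale (SE 0.14, adjusted p = 1.34e-05), from 2433 ± 422 TPM to 1394 ± 236 TPM (SD, n = 10). It was lower and past the threshold in 34 of 34 alternatives, at -0.91 (adjusted p = 8.36e-08) without vehicle 6 and 7. Of the 8 hepatocyte markers tested, 1 was higher and 1 lower, against 6.07% and 23.5% of all genes. Without vehicle 6 and 7 it was 1 and 7, against 5.56% and 54.4% of all genes.

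Of 12 tested uptake genes, Tf and Tfrc included, 1 rose and 6 fell, against 6.07% and 23.5% of all genes. The median log2 difference was -0.32. On the median-of-ratios scale 4 rose and 6 fell, against 26.6% and 27.1% of all genes. Without vehicle 6 and 7 it was 1 and 7, against 5.56% and 54.4%. Steap2, a metalloreductase that reduces ferric iron, fell from 2.78 ± 0.506 TPM to 0.929 ± 0.243 TPM (difference in log2 -1.20, SE 0.11, adjusted p = 1.34e-11), and its groups did not overlap. As its S217879 mean was below 1 TPM, Steap2 was kept for the test through the vehicle group. Its relative Steap4 fell from 161 to 92.9 TPM (log2 difference -0.83). Lipocalin-2 (Lcn2), which binds iron-loaded siderophores, fell from 80.8 ± 15.6 TPM to 42.4 ± 27.0 TPM (difference in log2 -1.05, SE 0.21, adjusted p = 5.22e-04), and treated replicate 9 at 117 TPM was above every vehicle liver. Slc39a14, a carrier of iron not bound to transferrin, fell from 44.2 to 34.1 TPM (log2 difference -0.38). Timd2, a receptor for ferritin heavy chain, was at 22.01 TPM in the vehicle group and rose to 27.9 TPM (log2 difference 0.36, adjusted p = 0.0247). That call was lost with no minimum level (adjusted p = 0.0633), and the difference was 0.20 without vehicle 6 and 7. The ratio of Tfrc to Slc40a1 within a library, uptake against export, had a median of 0.232 in the vehicle group and 0.276 in the S217879 group. The log2 ratios differed by 0.17 (permutation test, two-sided, p = 0.544, adjusted p = 0.544 over 5 ratios), within the spread of either group (SD 0.62 and 0.65), and by 0.035 to 0.31 when single animals were left out.

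**Figure D3:**
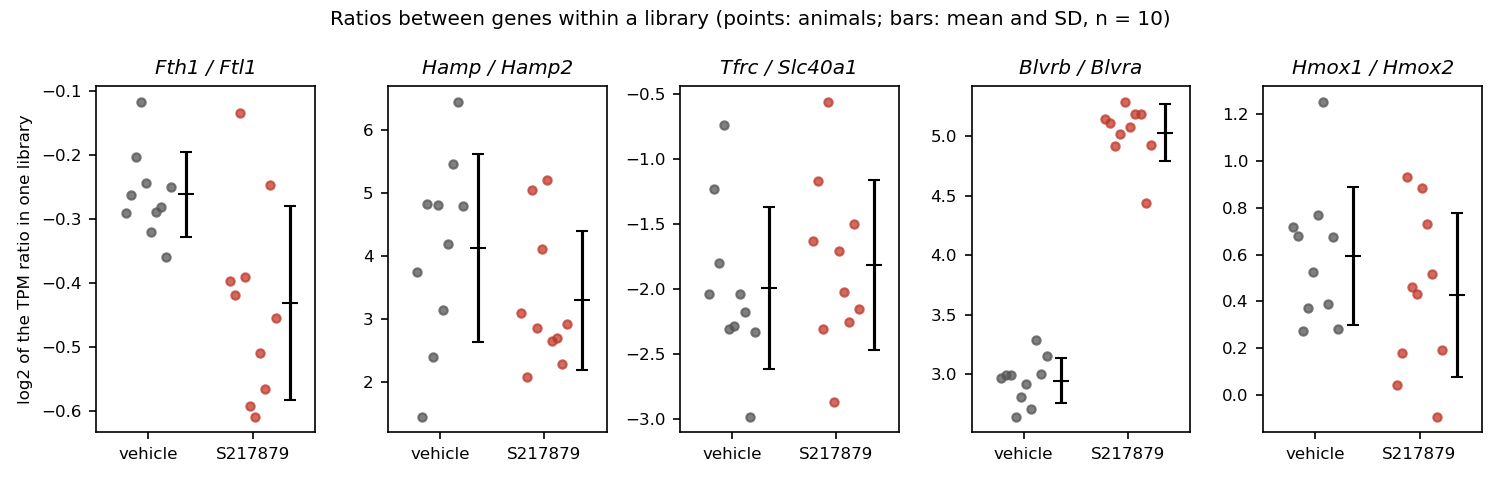
Log2 of 5 ratios between gene pairs within each library (y axis, not starting at 0), vehicle in grey and S217879 in red, with the mean and SD of 10 animals. Blvrb to Blvra is apart between the groups. The other 4 overlap, and of these Fth1 to Ftl1 passed the test, with a difference of -0.17.

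The pair of hepcidin genes had the largest SDs of the 10 on the log2 scale after median-of-ratios scaling, 0.96 and 0.95 for Hamp and 0.69 and 0.60 for Hamp2 in the vehicle and S217879 groups. They lie side by side on chromosome 7, Hamp at 30942368 to 30944032 and Hamp2 at 30922372 to 30924681 (minus strand, GRCm38). Their promoters are near copies, with 227 of 253 aligned columns identical (89.7%) over the 250 bases before the start. Hamp is known to be induced through a motif for BMP signals (GGCGCC) and one for STAT3 (TTCNNNGAA). The Hamp stretch holds both and the Hamp2 stretch only the second, in capitals where found. The Hamp stretch runs from 129 to 70 bases before the start at chr7:30944099-30944158 and the Hamp2 stretch from 126 to 67 bases before it at chr7:30924248-30924307, both on the minus strand and counted from RefSeq's starts on GRCm38.p6. RefSeq's start of Hamp2 lies within the bounds given above, which are GENCODE's, so the stretch of Hamp2 does too.
Hamp: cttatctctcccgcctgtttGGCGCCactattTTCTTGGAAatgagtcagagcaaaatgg
Hamp2: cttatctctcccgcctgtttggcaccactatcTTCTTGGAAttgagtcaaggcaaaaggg

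Counting from 1 at the 5′ end of the stretch, Hamp2 differs from Hamp by 6 substitutions, G24A, T32C, A42T, G50A, A51G and T58G, and G24A lies in the GGCGCC match. GGCGCC was in 11.9% and TTCNNNGAA in 8.30% of 32851 RefSeq windows of the same length (250 bases before to 50 after the start, both strands). Of the 7 genes with such a window, Tfrc also holds GGCGCC, 89 bases before its start. The core of the NRF2 motif (TGACNNNGC), in 12.4% of windows, was found among these 7 for Blvra only, 49 bases before its start on the minus strand. Hmox1, Slc40a1 and Tf had no window and were not searched, and a motif outside a window would be missed. A match describes letters in the window and is no evidence of binding.

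Hamp measured 221, 946 and 1920 TPM as lowest, median and highest of the vehicle group and 220, 572 and 1773 TPM in the S217879 group. The ranges all but coincide. The means were 886 ± 560 TPM and 807 ± 496 TPM (SD, n = 10), with a coefficient of variation of 63.2% and 61.5%, against 17.6% and 10.8% for Fth1. The log2 difference was -0.07 (SE 0.44, adjusted p = 0.928). No alternative of 34 called it, and its sign turned in 7 of them, the median-of-ratios scale included (0.05). Hamp2 measured 22.1, 42.4 and 82.8 TPM in the vehicle group and 31.7, 74.5 and 124 TPM in the S217879 group. Of the treated livers 9 of 10 were above the vehicle median and 4 of 10 above the highest vehicle liver. The means were 45.4 ± 22.3 TPM and 74.3 ± 28.6 TPM, with a log2 difference of 0.76 (SE 0.29, adjusted p = 0.0538), not past the threshold as deposited. It passed on the median-of-ratios scale (0.87, adjusted p = 0.0106) and in 12 of 34 alternatives in all. Among these were the fits without vehicle replicate 1, 2 or 6 (0.87, 0.86 and 0.77) and without S217879 replicate 4 or 6 (0.81 and 0.88). Gm44662 overlaps both genes on the opposite strand at 0.310 and 0.212 TPM. The sources used here do not say how reads that map to both hepcidin genes were counted. The part of such reads in the Hamp2 values, and in the ratio and relations below, was not tested.

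The 2 hepcidin genes did not follow each other. In the vehicle group Hamp and Hamp2 gave r = -0.58 (permutation p = 0.0829, adjusted p = 0.138) and rho = -0.49 (permutation p = 0.154, adjusted p = 0.222), and r without 2 libraries was -0.35. With S217879 r was 0.03 (permutation p = 0.930, adjusted p = 0.930), rho was -0.05 (permutation p = 0.893, adjusted p = 0.893) and r without 2 libraries 0.06. None of these passed the threshold. The ratio of Hamp to Hamp2 within a library had a median of 22.9 in the vehicle group (2.73 to 87.0) and of 7.39 in the S217879 group (4.21 to 37.0). The log2 ratios differed by -0.83 (SE 0.59, permutation test, two-sided, p = 0.168, adjusted p = 0.280 over 5 ratios), less than the SD of either group (1.48 and 1.11).

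Hamp did go with Id1, a gene induced by the same BMP signal. In the vehicle group r was 0.866 (permutation p = 0.00134, adjusted p = 0.0134) and rho 0.952 (permutation p = 9e-05, adjusted p = 9e-04). Without the 2 libraries farthest from the Hamp median r was 0.753 (adjusted p = 0.239). With S217879 r was 0.630 (permutation p = 0.05, adjusted p = 0.1) and rho 0.552 (permutation p = 0.102, adjusted p = 0.222), neither past the threshold after adjustment, and without 2 libraries r was -0.0044. The vehicle r was 0.879 on the deposited scale. The difference between the 2 groups' r was not tested.

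**Figure D4:**
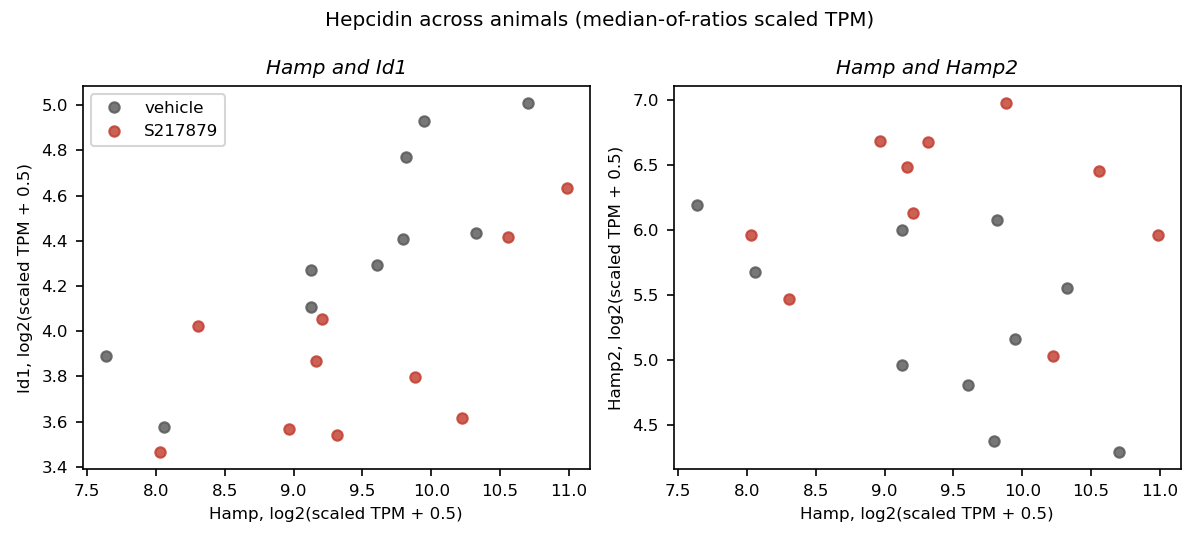
Each point is 1 animal on the median-of-ratios scale, log2(scaled TPM + 0.5), vehicle in grey and S217879 in red. Left, Id1 against Hamp, which go together in the vehicle group (r = 0.866). Right, Hamp2 against Hamp (r = -0.58 in the vehicle group and 0.03 in the S217879 group).

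Of 24 tested genes of hepcidin control, Hamp and Hamp2 included, 3 rose, 3 fell and 18 did not pass, a share near the 29.6% called among all genes. The median log2 difference was -0.14. The split was 7 and 8 on the median-of-ratios scale, against 26.6% higher and 27.1% lower among all genes. Without vehicle 6 and 7 it was 1 and 13, against 5.56% and 54.4% of all genes. Bmp6, the BMP ligand that reports iron load, rose from 3.93 ± 0.865 TPM to 5.15 ± 1.06 TPM (adjusted p = 0.0201), a log2 difference of 0.36. That call was lost without S217879 replicate 8 (0.30), and without vehicle 6 and 7 (0.25). Bmp6 in liver is made by sinusoidal endothelium. Of 8 tested markers of those cells 5 rose and none fell, against 6.07% and 23.5% of all genes. On the median-of-ratios scale 6 rose and none fell, against 26.6% and 27.1%. Without vehicle 6 and 7 it was 2 and 1, against 5.56% and 54.4%. Bmp6 itself and the ligand Bmp2 are among the 8 and among the 5, so the count of 5 partly repeats the Bmp6 values. Lyve1, Clec4g and Kdr also rose, while Stab1, Stab2 and Pecam1 did not pass. The sums, Bmp6 included, were 76.4 to 154 TPM and 122 to 168 TPM. The part of those cells in the Bmp6 values was not tested. Hfe, which senses transferrin iron with its receptor, rose from 27.6 ± 5.05 TPM to 36.2 ± 3.89 TPM (by 0.41 in log2, SE 0.12, adjusted p = 0.00644). Id1 measured 22.8 ± 9.49 TPM and 14.4 ± 4.16 TPM (log2 difference -0.58, SE 0.23, adjusted p = 0.0589) and passed as lower in 11 of 34 alternatives, among them those without vehicle replicate 4, 6 or 7 or S217879 replicate 3. Smad7, an inhibitor induced by the same path, measured 10.3 and 8.51 TPM (log2 difference -0.22, adjusted p = 0.210) and was called lower in 4 of 34 alternatives. Tmprss6, the protease that trims the hepcidin coreceptor, measured 300.1 and 326 TPM (0.14, adjusted p = 0.436). It was called higher on the median-of-ratios scale (0.26, adjusted p = 1.01e-04). Tfr2, the hepatocyte sensor of transferrin, measured 185 TPM in both groups (0.02, adjusted p = 0.937). Gdf15, a stress cytokine that has been tied to low hepcidin, fell from 26.0 ± 8.29 TPM to 10.97 ± 4.15 TPM (difference in log2 -1.21, SE 0.20, adjusted p = 7.49e-05). Fgl1, a liver protein that antagonises BMP signals to hepcidin, fell from 99.95 ± 16.1 TPM to 64.9 ± 37.9 TPM (difference in log2 -0.76, SE 0.22, adjusted p = 0.0103).

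No iron sensor of 3 passed the test by limma as deposited. On the median-of-ratios scale 2 were called, both higher, where 53.7% of all genes were called, 26.6% higher. Aco1, the iron regulatory protein that doubles as cytosolic aconitase, measured 121 ± 26.1 TPM and 122 ± 12.2 TPM (log2 difference 0.04, adjusted p = 0.870). Ireb2, the other regulatory protein, measured 20.4 ± 4.12 TPM and 21.5 ± 2.76 TPM (0.10, adjusted p = 0.577), and both were called higher on the median-of-ratios scale (0.15 and 0.21). Without vehicle 6 and 7 Aco1 was at -0.13 and Ireb2 at -0.05. Against 6.07% higher and 23.5% lower among all genes, 3 of 7 tested genes of mitochondrial iron rose and none fell. They were the scaffold of iron-sulfur clusters Iscu, from 81.9 ± 20.1 TPM to 116 ± 13.5 TPM (difference in log2 0.53, SE 0.13, adjusted p = 0.00183), the cluster carrier Glrx5, from 273 to 359 TPM (0.42, adjusted p = 0.0288), and mitoferrin Slc25a37, from 20.9 to 27.5 TPM (0.42, adjusted p = 0.00973, and 0.26 without vehicle 6 and 7). The Glrx5 call was lost without vehicle replicate 4 or 7, without S217879 replicate 5 or 8, and without vehicle 6 and 7 together (0.25 there).

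Of 8 tested genes that control Hmox1, none rose and 4 fell, against 6.07% and 23.5% of all genes. The median log2 difference was -0.29. On the median-of-ratios scale 1 rose and 3 fell, against 26.6% and 27.1% of all genes. Without vehicle 6 and 7 none rose and 6 fell, against 5.56% and 54.4%. Nfe2l2, which encodes NRF2, fell from 53.4 ± 9.53 TPM to 28.5 ± 4.91 TPM (difference in log2 -0.89, SE 0.12, adjusted p = 3.08e-07), with 10 of 10 treated livers below the vehicle median. Maff, a small Maf partner of NRF2, fell from 21.96 ± 5.03 TPM to 9.54 ± 1.93 TPM (difference in log2 -1.16, SE 0.12, adjusted p = 1.08e-09), and its groups did not overlap. The other 2 that fell were the heme-binding receptors Nr1d1 (-0.41) and Nr1d2 (-0.39). The call of Nr1d1 was lost on the median-of-ratios scale (-0.29, adjusted p = 0.0732) and in 10 of 20 fits that each left out 1 animal. Keap1, the repressor of NRF2, measured 29.9 and 32.4 TPM (0.13, adjusted p = 0.416), and Bach1, the heme-sensing repressor of Hmox1, 21.1 and 20.3 TPM (-0.04, adjusted p = 0.845). Keap1 was called higher on the median-of-ratios scale (0.25), and Bach1 was above 0 there (0.08, adjusted p = 0.197). Bach1 was called lower in 3 of 34 alternatives, among them the fit without vehicle 6 and 7 (-0.16, adjusted p = 0.0299).

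**Figure D5:**
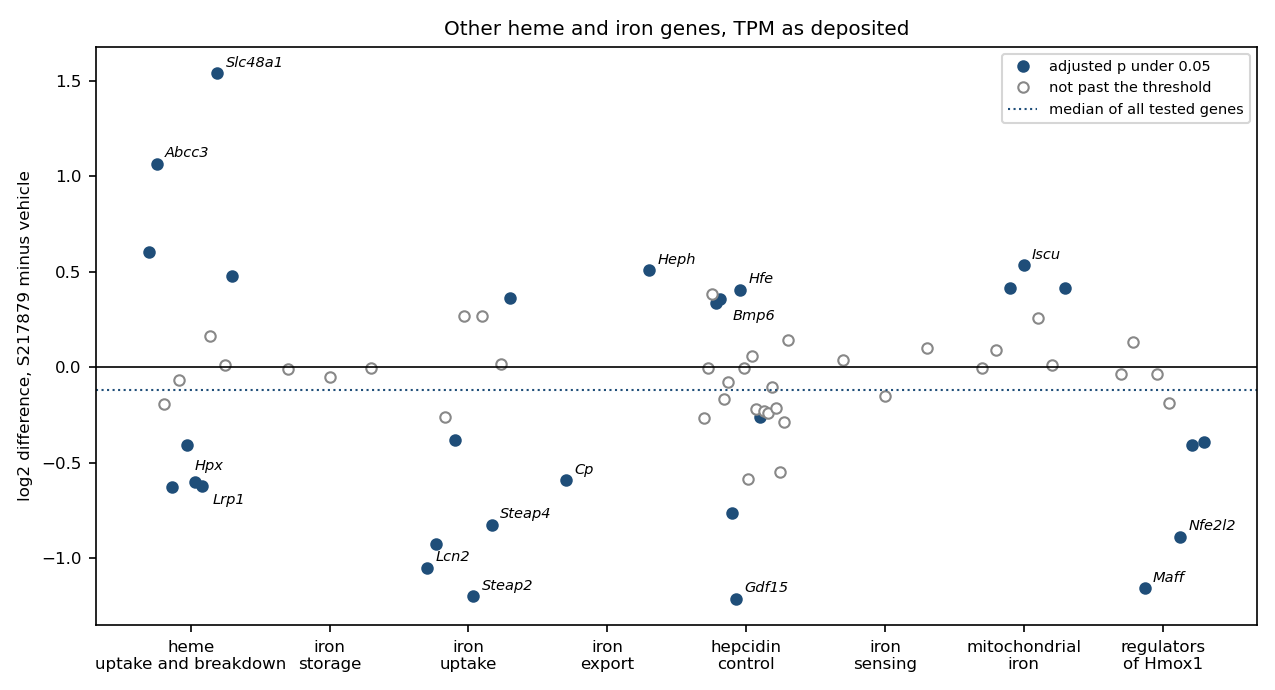
Log2 difference between S217879 and vehicle, as deposited, for the heme and iron genes other than the 10, grouped by role. Filled points passed the test and open points did not. The dotted line is the median of all tested genes, -0.12. Slc48a1 (1.54) and Abcc3 (1.07) lie highest, and Gdf15 (-1.21), Steap2 (-1.20) and Maff (-1.16) lowest.

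Over the 67 tested heme and iron genes outside the 10, 12 rose, 17 fell and 38 did not pass, with a median log2 difference of -0.05. On the median-of-ratios scale 23 rose and 21 fell, and without vehicle 6 and 7 it was 9 and 34. The shares as deposited can be read against the 6.07% higher and 23.5% lower among all genes. Those on the median-of-ratios scale can be read against 26.6% and 27.1%, and those without vehicle 6 and 7 against 5.56% and 54.4%.

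In level, Ftl1, Fth1, Tf and Hamp came first in this order in both groups by their median TPM, which is per length of transcript. In the vehicle group the ranges of Ftl1 and Fth1 overlapped, as did those of Fth1 and Tf and those of Tf and Hamp. In the S217879 group Fth1 and Tf were apart and the other neighbours among these overlapped. Among the lower genes the order differed between the groups. Hmox1 came before Hamp2 and Slc40a1 in the vehicle group (49.4, 42.4 and 33.1 TPM), and after them in the S217879 group (42.4, 74.5 and 46.2 TPM). Blvra and Tfrc were lowest in both groups, Blvra above Tfrc in the vehicle group and below it in the S217879 group, with overlapping ranges. After median-of-ratios scaling the SD of log2 values within the vehicle group ran from 0.04 for Fth1, 0.09 for Ftl1 and 0.09 for Tf to 0.50 for Tfrc, 0.69 for Hamp2 and 0.96 for Hamp.

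For 4 of the genes the most similar patterns across animals were sought among 13400 other genes, as the mean of the 2 within-group Pearson r over 10 libraries each, on the median-of-ratios scale and as a description. Hmox1 went most with G6pdx (mean r 0.818), B430306N03Rik (0.817) and Tfec (0.784), and G6pdx itself was not called between the groups (log2 difference -0.04). Slc40a1 went most with Etnppl (0.852), Cyp4v3 (0.837) and Cyp2f2 (0.832). Between the groups the log2 difference was 1.90 for Etnppl, 0.10 for Cyp4v3 and 2.21 for Cyp2f2. Tfrc went most with Mapre1 (0.825), Gramd1c (0.818) and Tstd2 (0.813). Hamp went most with Apoa5 (0.836), Ndufa11 (0.818) and Smad9 (0.799). Each is the highest of many values over few animals.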

How the data were processed

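Liver RNA was sequenced from 20 mice, 1 library each, grouped by the treatment label. Each library carries its own animal number in the labels, numbers that pair no animals across groups. Libraries came from total RNA by poly(A) capture with a kit that keeps strand, per the labels' protocols. The submitters' processing notes name Trimmomatic 0.36, STAR 2.5.2b, featureCounts, Subread 1.5.2 and GRCm38. The annotation, strand setting and handling of multiply mapped reads are not stated in those sources. Deposited values are a length-scaled signal made by the authors, TPM, since each library sums to 1000000. TPM keeps no read depth, so no counting interval was computed and no count test was run; precision rests on 10 animals a group.

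The 13401 genes that averaged 1 TPM or more were tested on log2(TPM + 0.5) with limma 3.58.1 in R 4.3.3 (trend and robust), and p-values were adjusted by Benjamini and Hochberg over all of them, with a threshold of 0.05. A fold understates the change of low genes on this scale. Ratios and correlations within libraries were tested with 100000 permutations. Symbols were matched through Ensembl IDs, with Trf read as Tf and Hfe2 as Hjv. Hairpins were searched in GENCODE M21 transcripts and promoters in RefSeq windows, which were found for 7 of the 10 genes. The genes, lists and alternatives were chosen with earlier results of these data known. Genes outside the 10 were named by a rule: up to 2 called genes at either end of each list, or its 2 most abundant, plus Nfe2l2, Keap1, Bach1 and 6 hepcidin inputs, 27 in all. Hmox2, Hpx, Hp, Abcc2, Ugt1a1, Ncoa4, Steap4, Slc39a14, Slc25a37, Nr1d1, Nr1d2, Nqo1, Alb and the genes that overlap a member were named after their values were seen. The alternatives (34) were other pseudocounts, minimum levels, scalings, tests and fits without single libraries or without vehicle 6 and 7. Some listed erythroid markers are not reported here.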

Additional observations from a re-analysis of the deposited data

Results flagged for a closer look

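Of 74 sets of 10 animals examined (each gene named, in each group), 6 held a value far from the rest by Dixon's gap criterion, which chance meets in about 1 of 20 sets. All were high values in the S217879 group. Tfrc was at 32.3 TPM in replicate 4 (next 17.4 TPM), and Hfe at 46.2 TPM in the same animal (next 37.2 TPM). Replicate 9 held the high value of Tf at 1972 TPM (next 1503 TPM), of Lcn2 at 117 TPM (next 43.6 TPM) and of Fgl1 at 163 TPM (next 77.9 TPM). Gdf15 was at 21.3 TPM in replicate 1 (next 12.5 TPM).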

How the results depend on the processing

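Blvrb, Fth1, Ftl1, Slc40a1 and Tf kept their direction and call in every alternative that could test them, as did the 5 within-library ratios; rescaling without the 20 most abundant genes removed Ftl1. All genes called lower numbered 1642 with a minimum of 5 TPM, 7279 without the 20 most abundant genes (1446 higher), 8576 without the ribosomal RNA-type genes, 8023 with array weights, 7307 without vehicle 6 and 7 and 2637 to 5194 leaving out single animals, vehicle 6 giving the most. Genes called higher numbered 3536 with quantile normalization and 3561 with median-of-ratios scaling. With Hmox1 and Blvra added, 3 of the 10 genes were lower without the 20 most abundant genes, without the ribosomal RNA-type genes, with array weights and without vehicle 6 and 7, and 1 to 3 leaving out single animals.

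Signs turned as follows. With median-of-ratios scaling the log2 difference was 0.0487 for Hamp, 0.0642 for Pcbp1, 0.114 for Pcbp2 and 0.0788 for Bach1. With quantile normalization it was -0.0421 for Aco1, 0.0400 for Bach1 and -0.107 for Tfr2. Without mitochondrial genes Pcbp2 was at 0.0194. Without the 20 most abundant genes Aco1 was at -0.0359 and Tfr2 at -0.0536. Without the ribosomal RNA-type genes Aco1 was at -0.108, Ireb2 at -0.0411, Keap1 at -0.0098, Tmprss6 at -0.0023 and Tfr2 at -0.13. With array weights Aco1 was at -0.0882, Ireb2 at -0.0699 and Tfr2 at -0.12. Without vehicle 6 and 7 Aco1 was at -0.129, Ireb2 at -0.0514 and Tfr2 at -0.13. Leaving out single animals gave -0.25 to 0.11 for Hamp, -0.0759 to 0.0313 for Pcbp2, -0.0620 to 0.0687 for Aco1 and -0.0647 to 0.0595 for Tfr2. On the deposited scale r was -0.0256 for Hamp and Hamp2 with S217879, and 0.972 (vehicle) and 0.751 (S217879) for Fth1 and Ftl1, both then past the threshold. Without 2 libraries r was 0.753 for Hamp and Id1 in the vehicle group, -0.0044 with S217879, and -0.12 for Slc40a1 and Vsig4 in the vehicle group. The cause of these changes was not tested.

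No paired analysis was possible because the labels give each animal a number of its own and link none across groups. TPM hides read depth, so the reads behind low genes such as Heph and Steap2 are unknown.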
